A study of Mus musculus with 117 samples.

Results

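Interferon-stimulated genes are switched on when interferons bind their receptors on the cell surface. Type I interferons (interferon alpha and beta) act through the kinases Jak1 and Tyk2 and a complex with Stat2 and Irf9 that binds the interferon-stimulated response element (ISRE), whereas interferon gamma acts mainly through the gamma-activated site (GAS). In the central nervous system astrocytes and microglia both respond to interferons, and genes of this program belong to most descriptions of astrocyte reactivity. Here 41 interferon-stimulated genes, chosen by name from textbook knowledge of the program, were followed among the 27179 genes counted in every library. They were ordered by role into 10 groups: transcription factors (Irf1, Irf7, Irf9, Stat2), IFIT proteins (Ifit1, Ifit2, Ifit3), oligoadenylate synthetases (Oas1a, Oas2, Oas3, Oasl1, Oasl2), Mx GTPases (Mx1, Mx2), guanylate-binding proteins (Gbp2, Gbp3, Gbp5, Gbp6, Gbp7), immunity-related GTPases (Irgm1, Igtp, Iigp1, Ifi47), Isg15 with its protease Usp18, nucleic acid sensors (Ifih1, Dhx58, Zbp1, Ifi202b, Ifi204), membrane factors (Bst2, Ifitm3, Ifi27l2a) and other effectors (Rsad2, Cmpk2, Parp14, Trim30a, Rtp4, Xaf1, Ifi35, Ifi44).

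Mice carried the RiboTag allele, which puts an HA tag on the ribosomal protein Rpl22 in cells with Cre activity, so that ribosome-bound RNA of astrocytes could be pulled down with an antibody to HA from a block of spinal cord. The RNA left after the pulldown, called flow-through, held the other cells of the same block and the astrocyte RNA that was not captured. In the Aldh1l1-CreERT2-RiboTag line, where Cre is driven by the Aldh1l1 promoter and was induced with tamoxifen in all groups, uninjured included, female adults were sampled uninjured (4 mice) and 2 d (5 mice), 5, 14, 28, 42 and 70 d (4 mice each) after complete crush of the thoracic cord, with both fractions from each mouse, and 4 males each were added at 5 and 14 d. In the mGfap-Cre-73.12-RiboTag line, where Cre follows a mouse Gfap promoter and needs no inducer, both fractions were taken from 5 females at 14 d after the crush and from 5 uninjured mice (3 male, 2 female) at postnatal day 63 (P63), and the astrocyte fraction alone from uninjured pups and young mice at P0 (4), P3 (3), P7 (3), P14 (5), P21 (4) and P35 (4). This made 117 libraries in 28 groups, 70 of astrocyte RNA and 47 of flow-through. The block reached 1 mm to either side of the lesion center. In such bulk libraries fewer cells of a type and less RNA per cell cannot be told apart.

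Total counts per library ran from 40710428 to 136008399. Levels below are TMM-scaled counts relative to library size (CPM), with 1 scaling over all 117 libraries, changes are log2 fold changes with their standard error, and a gene was called higher or lower at a false discovery rate under 0.01 over all genes tested (edgeR quasi-likelihood F test). The pulldown matched its label in the uninjured cord, where 10 astrocyte markers (Aldh1l1, Aqp4, Gja1 and others) summed to 35960.1 to 44720.3 CPM in Aldh1l1 astrocytes against 1097 to 1383 in flow-through. After injury the astrocyte fraction also held myeloid transcripts: 10 pan-myeloid markers (Ptprc, Tyrobp, Cd68 and others) summed to 31.4 to 46.8 CPM uninjured, 780.1 to 1549 at 2 d, 3827 to 4892 at 5 d and 448 to 1209 at 70 d, and all 10 were called higher at each time. Myeloid cells express interferon-stimulated genes too, and the part of these transcripts in the changes given below for the Aldh1l1 line was not tested.

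Replicate 1 of the Aldh1l1 astrocytes at 28 d stood apart. The 41 genes together reached 3656 CPM in it against 976 to 1187 in the other 3 libraries of the group. It was the highest of the 4 libraries for 37 of the 41 genes, with a median ratio of 2.30 to the mean of the other 3 and a largest ratio of 17.8 for Iigp1. How often it was the highest among all genes was not counted, so the excess is not shown to be particular to the 41. Its counts differed from those of the other 3 by a chi-square per degree of freedom of 193.48 to 334.77. Among the other 3 it was 49.03 to 126.17. Values as high occurred in other groups of Aldh1l1 astrocytes too. They reached 311.57 between replicates 3 and 4 at 5 d and 511.29 between replicates 1 and 2 at 14 d. The excess was widest among the GTPases: all 5 guanylate-binding proteins and all 4 immunity-related GTPases exceeded 3-fold, beside Irf7, Oasl2, Mx1 and Ifi44. Its own flow-through library was the highest of 4 for 6 genes only, with a median ratio of 0.966 and none above 3-fold. The pan-myeloid markers in the astrocyte library (1290.35 CPM, others 981 to 1701) and T and NK cell markers (28.7 CPM, others 26.4 to 29.8) lay inside the range of the group. Counts of members at 28 d and the single-gene values at 28 d that it moved are therefore given with and without it.

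**Figure D1:**
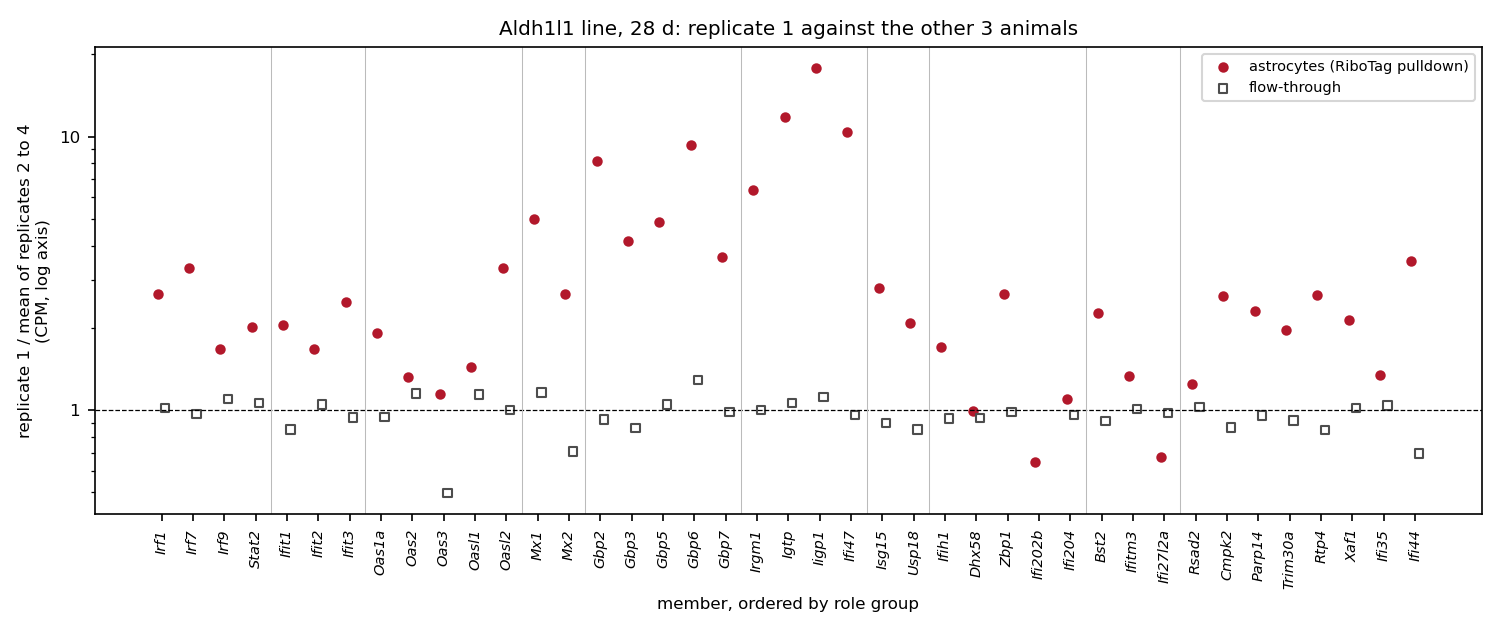
Level of each of the 41 genes in replicate 1 of the Aldh1l1 line at 28 d divided by the mean of replicates 2 to 4 (ratio of CPM, log axis), for the astrocyte pulldown (filled circles) and the flow-through of the same mice (open squares), ordered by role group. Astrocyte ratios rise to 17.8 at Iigp1, while no flow-through ratio exceeds 1.29.

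The sequences around the transcription start were searched for the letters of the ISRE and the GAS. RefSeq promoter windows of GRCm38.p6, 300 bases from 250 before to 50 after the start, were given for 29 of the 41 genes (not for Dhx58, Gbp6, Ifi204, Ifi27l2a, Iigp1, Mx1, Mx2, Oas2, Parp14, Rtp4, Usp18 and Zbp1). The letters GAAANNGAAA, the core of the ISRE, were found on either strand in 17 of the 29 (58.6%), against 1131 of all 32851 windows (3.44%) and 3.99% of all genes, and 9 members held it at 2 or more positions. The palindrome TTCNNNGAA of the GAS was found in 10 of the 29 (34.5%) against 8.30% of all windows and 9.55% of all genes. Bst2, Gbp5, Gbp7, Ifitm3, Igtp and Oas1a held both, and Cmpk2, Ifi44, Ifi47, Irf7, Irf9, Oasl1, Oasl2 and Xaf1 neither within these windows. A match is a run of letters, not a shown binding site.

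Of the members with an ISRE core, stretches of 5 are printed because they span the forms seen: a single core, cores that overlap by sharing 4 bases, and cores next to a GAS. They read 5' to 3' in the direction of the gene, capitals mark the motif letters on either strand, and none overlaps an annotated exon. Isg15 lies at chr4:156200860-156200911 (minus strand, 93 to 42 bases before the start), Irgm1 at chr11:48871421-48871465 (minus, 45 to 1), Bst2 at chr8:71537572-71537623 (minus, 151 to 100), Gbp2 at chr3:142620589-142620628 (plus, 74 to 35) and Gbp5 at chr3:142496684-142496905 (plus, 250 to 29).
Isg15: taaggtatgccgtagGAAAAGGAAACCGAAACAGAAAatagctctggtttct
Irgm1: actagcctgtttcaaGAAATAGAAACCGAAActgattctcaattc
Bst2: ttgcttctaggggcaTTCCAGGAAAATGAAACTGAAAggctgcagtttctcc
Gbp2: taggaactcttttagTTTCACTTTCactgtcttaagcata
Gbp5: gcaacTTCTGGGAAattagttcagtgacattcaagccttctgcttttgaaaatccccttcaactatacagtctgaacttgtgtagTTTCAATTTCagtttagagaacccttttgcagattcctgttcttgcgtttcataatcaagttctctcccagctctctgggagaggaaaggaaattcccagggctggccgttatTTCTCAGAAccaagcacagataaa

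In Isg15 3 cores run into each other from 78 bases before the start, in Irgm1 2 cores from 30 bases and in Bst2 2 cores from 124 and 130 bases with a GAS that begins at 136. Gbp2 has a single core at 59 bases on the other strand. Gbp5 has a core at 165 bases, also on the other strand, with a GAS further upstream and another at 52. At 14 d in Aldh1l1 astrocytes the 17 members with a core had a median log2 fold change of 1.97 (0.49 to 4.45) and the 12 without it 2.18 (-0.08 to 5.86, the upper end being the fitted value of Ifi202b against 0 counts in every uninjured library), and in mGfap astrocytes the medians were 2.49 and 2.99. These are descriptions over genes, which are not replicates.

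The first comparison asked how the genes moved in astrocytes over 70 d after the crush. Most of the 41 rose by 2 d, fewer stood out at 5 d, most again at 14 and 28 d, and 18 and 21 at 42 and 70 d. At 2 d 32 of 41 genes were higher and 1 lower than in uninjured astrocytes, where 30.2% of all genes tested were higher, and the median change over the 41 was 1.93 on the log2 scale. At 5 d 25 were higher and 1 lower (28.7% of all genes higher, median 1.42), at 14 d 36 and 0 (24.5%, median 2.14), at 28 d 33 and 0 (22.8%, median 2.16), at 42 d 18 and 0 (23.3%, median 1.04) and at 70 d 21 and 0 (23.9%, median 1.24). The median over all genes lay between -0.04 and 0.05 at these times.

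Without the 28 d library that stood apart, 29 genes were higher at 28 d and the median fell to 1.66. Ifit3, Igtp, Oasl1 and Stat2 lost the call there. Since all times share 1 estimate of the spread, the other counts moved too: without it 34, 27, 37, 21 and 27 genes were higher at 2, 5, 14, 42 and 70 d. With all libraries 7, 8, 12, 13 and 1 genes had their largest change at 2, 5, 14, 28 and 70 d. Without it 10, 8, 17, 2 and 4 genes peaked at 2, 5, 14, 28 and 70 d, that is 2 in place of 13 at 28 d. In all 13 genes were higher at each of the 6 times (15 without the library) and 3 at none. How many of all genes peaked at each time or were higher at all 6 times was not counted.

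Summed over the 41 genes, Aldh1l1 astrocytes held 319.1 to 501 CPM uninjured, 845 to 1755 at 2 d, 834 to 1062 at 5 d, 1021 to 1520.1 at 14 d, 976 to 3656 at 28 d, 778 to 963 at 42 d and 895 to 1350.3 at 70 d. No injured library overlapped the uninjured ones. The pan-myeloid sum had its peak at 5 d, when the members' count and median were lower than at 2 and 14 d. At that time 8 members had their largest change: Bst2, Dhx58, Ifi204, Ifi27l2a, Oas1a, Oas3, Trim30a and Zbp1. How the 2 sums relate was not tested. At 5 d the pan-myeloid sum was 3827 to 4892 CPM against 780.1 to 1549 at 2 d.

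**Figure D2:**
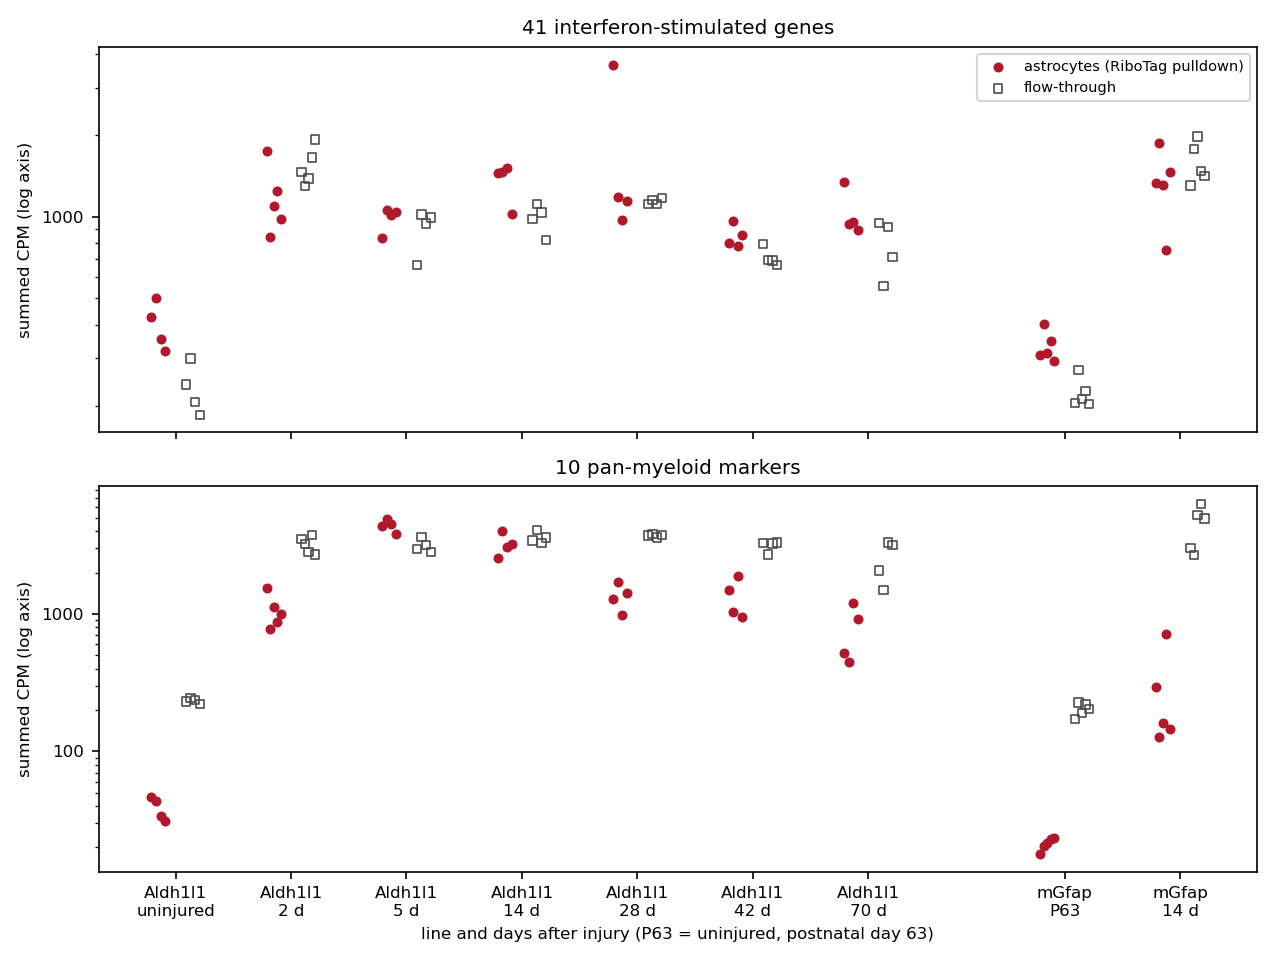
Summed CPM of the 41 interferon-stimulated genes (upper panel) and of 10 pan-myeloid markers (lower panel), both on log axes, with 1 point per library for the female Aldh1l1 time course and the mGfap line, filled circles for astrocytes and open squares for flow-through. At 14 d the gene sums of both lines overlap in astrocytes (1021 to 1520 and 755 to 1869.6), whereas the pan-myeloid sums do not (2553 to 4033 and 127 to 713).

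The genes are described next by role, each group led by its member with the highest mean level per kilobase of exon. All positions are of GRCm38 and cover the whole gene. Among the transcription factors this was Irf9 (gene ID 16391, chromosome 14, 55603985 to 55610030), the DNA-binding subunit of the type I interferon complex. Its level in uninjured astrocytes was 18.3, 22.2, 15.8 and 19.4 CPM. At 2 d it held 55.6, 33.7, 42.02, 47.3 and 33.6, by 5 d 32.3, 45.4, 36.3 and 40.4 and by 70 d 32.6, 22.4, 29.4 and 32.9 CPM. Every library of 2 and 5 d lay above every uninjured one, and at 70 d the lowest library was level with the highest uninjured one. The change was 1.17 ± 0.17 (SE, adjusted p = 7e-07) at 2 d, 1.00 ± 0.18 (SE, adjusted p = 1.39e-05) at 5 d and 0.64 ± 0.18 (SE, adjusted p = 0.00296) at 70 d. Irf1, induced by interferon gamma as well, rose at all 6 times, from 1.14 at 2 d to 2.56 at 28 d (2.06 without the library apart). Irf7, which drives further type I interferon production, had the largest change of the group at 2, 5 and 14 d (2.46, 2.47 and 2.79) and stood at 1.01 at 70 d, not called, or called (adjusted p = 0.00329) without the 28 d library apart. Stat2 had the smallest change at each time and was called at 14 and 28 d (0.95 and 0.83, the latter 0.50 and not called without the library apart). Without that library it was called at 2 and 5 d too (0.57 and 0.60). The span of the Stat2 gene overlaps that of Apof. Whether exons overlap was not examined, so reads there are uncertain.

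The IFIT proteins, which bind viral RNA ends and block translation, were called at 2 d in 3 of 3 members, at 5 d in none, at 14 d in 3 of 3 again, at 28 d in 2 (1 without the library apart) and at 42 d in Ifit2 alone (0.91). Ifit3 (gene ID 15959, chromosome 19, 34583119 to 34588982) held 37.6, 48.8, 21.9 and 16.5 CPM uninjured. The libraries of 2 d held 123, 40.4, 64.2, 85.1 and 65.5, by 5 d 19.6, 27.1, 19.7 and 25.4 and by 14 d 123, 97.95, 121 and 45.0 CPM. All 4 libraries of 5 d fell within the uninjured range, as did 1 library each of 2 and 14 d, while the other libraries of these times lay above it. The change was 1.28 ± 0.36 (SE, adjusted p = 0.00278) at 2 d, -0.47 ± 0.37 (SE, adjusted p = 0.268) at 5 d and 1.02 ± 0.37 (SE, adjusted p = 0.0216) at 70 d. Tested directly, the step from 2 to 5 d was -1.75 ± 0.36 (SE, adjusted p = 0.000261) and that from 5 to 14 d 2.05 ± 0.38 (SE, adjusted p = 0.000141). Ifit2 followed the same steps, with -0.93 from 2 to 5 d and 0.92 from 5 to 14 d. Ifit1, whose gene span overlaps that of Ifit1bl1, changed by 1.55 at 2 d, 0.33 (not called) at 5 d and 2.17 at 14 d. At 70 d no member of the group was called (0.48 to 1.02), and Ifit2 was (adjusted p = 0.0099) without the 28 d library apart.

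Oligoadenylate synthetases make short oligoadenylate chains on double-stranded RNA that activate RNase L. Of 5 members 4 were higher at 2, 5 and 14 d, 3 at 28 d and 1 at 42 and 70 d. Oasl2 (gene ID 23962, chromosome 5, 114896926 to 114912245) held 18.2, 23.4, 16.3 and 12.3 CPM uninjured. After 2 d the levels were 123, 37.9, 59.5, 53.8 and 37.9, by 5 d 31.6, 49.5, 38.6 and 46.6 and by 70 d 44.8, 30.5, 35.9 and 37.6 CPM. All these injured libraries lay above the uninjured range, and replicate 1 at 2 d lay far above its group. The change was 1.83 ± 0.38 (SE, adjusted p = 0.000143) at 2 d, 1.22 ± 0.38 (SE, adjusted p = 0.00758) at 5 d and 1.09 ± 0.38 (SE, adjusted p = 0.0185) at 70 d, the last past the threshold without the 28 d library apart (adjusted p = 0.00386). Oas1a, an active synthetase, held the largest change of the group at all 6 times. It went from 0.409, 1.20, 0.407 and 0 CPM uninjured to 12.8, 18.998, 19.2 and 18.5 at 5 d, 5.05 ± 0.54 (SE, adjusted p = 6.62e-09) on the log2 scale, with 37, 113, 40 and 0 counts in the uninjured libraries. It was the member still called at 42 d (2.89) and 70 d (2.73). Oas3 was called at 2, 5 and 14 d (1.75 to 2.83) and Oasl1 at 2, 5, 14 and 28 d (2.14 to 3.80), the lowest of which, at 28 d, was 1.99 and not called without the library apart. Oas2 had the smallest change, 0.05 to 0.81 over the 6 times, and was called at none. Members of this family resemble each other in sequence, so reads may be split between them.

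The Mx GTPases, which trap viral nucleoproteins, were low. Mx2 (gene ID 17858, chromosome 16, 97536081 to 97560901) held 0.818, 0.703, 0.488 and 0.805 CPM uninjured. At 2 d it held 5.87, 1.504, 2.28, 2.69 and 1.05, by 5 d 1.23, 1.11, 0.690 and 1.53 and by 70 d 0.681, 0.551, 0.580 and 0.759 CPM. The 70 d libraries sat inside the uninjured range. The change was 1.93 ± 0.46 (SE, adjusted p = 0.000475) at 2 d, 0.67 ± 0.46 (SE, adjusted p = 0.205) at 5 d and -0.12 ± 0.47 (SE, adjusted p = 0.847) at 70 d. Mx1 was called at 2, 5, 14 and 28 d, with its largest change at 14 d (3.92), and stood at 0.94 and 0.37 at 42 and 70 d, not called.

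Guanylate-binding proteins are large GTPases that attack the vacuoles of intracellular microbes and are known as strong interferon gamma targets. They were still higher at the last time: of 5 members 4, 2, 4, 5, 4 and 5 were higher at the 6 times in order, and without the 28 d library apart 5 at 14 and at 42 d. Gbp2 (gene ID 14469, chromosome 3, 142620663 to 142638008) held 12.1, 17.1, 10.4 and 7.33 CPM uninjured. The libraries of 2 d held 114, 39.1, 50.05, 47.97 and 48.6, by 5 d 19.4, 22.3, 19.2 and 20.6, by 28 d 638, 91.1, 70.1 and 73.4 and by 70 d 138, 43.5, 50.4 and 64.3 CPM. The 4 libraries of 5 d, all above the uninjured range, were lower than every library of 2 d, and replicate 1 was the highest at 28 and at 70 d. The change was 2.36 ± 0.55 (SE, adjusted p = 0.000542) at 2 d, 0.77 ± 0.54 (SE, adjusted p = 0.22) at 5 d and 2.66 ± 0.57 (SE, adjusted p = 0.000338) at 70 d. Gbp5 differed in course: it rose from 1.01, 1.72, 1.35 and 0.675 CPM uninjured to 8.46, 3.97, 7.63, 4.68 and 6.05 at 2 d and 11.7, 16.02, 15.2 and 9.67 by 5 d. The libraries of 14 d held 26.3, 29.2, 34.05 and 18.98 CPM and those of 70 d 28.1, 13.7, 17.3 and 21.1. Its change was 2.37 ± 0.44 (SE, adjusted p = 4.52e-05) at 2 d, 3.43 ± 0.47 (SE, adjusted p = 5.44e-07) at 5 d and 4.07 ± 0.48 (SE, adjusted p = 1.08e-07) at 70 d, the largest of the group at all 6 times. Gbp3 was higher at all 6 times as well (1.26 at 5 d to 2.92 at 28 d, or 2.07 without the library apart). The smallest changes were those of Gbp6 at 2 d (0.71, not called) and Gbp7 at the other 5 times (0.12 at 5 d, not called, to 1.70 at 28 d, or 0.96 without the library apart). At 28 d Gbp2 changed by 4.22 with that library and 2.73 without it, and Gbp5 by 5.20 and 4.22.

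Immunity-related GTPases act on the same vacuoles, with Irgm1 and Igtp as regulators of the others. Of 4 members 1 was called at 2 d (Irgm1), 1 at 5 d (Ifi47), 3 at 14 d, 4 at 28 d and 1 each at 42 and 70 d (Ifi47). Without the 28 d library apart 2, 2, 3, 3, 2 and 4 were called at the 6 times in order, so that all 4 were higher at 70 d. Irgm1 (gene ID 15944, chromosome 11, 48865245 to 48871420) held 23.5, 27.3, 21.3 and 19.4 CPM uninjured. After 2 d the levels were 91.2, 63.7, 74.1, 70.1 and 65.2, by 5 d 39.6, 46.8, 41.3 and 43.7, by 28 d 317, 60.5, 43.7 and 45.3 and by 70 d 90.4, 32.6, 34.9 and 44.9 CPM. All these injured libraries lay above the uninjured range, and replicate 1 at 28 d lay far above the other 3. The change was 1.68 ± 0.44 (SE, adjusted p = 0.00153) at 2 d, 0.88 ± 0.44 (SE, adjusted p = 0.0847) at 5 d and 1.15 ± 0.45 (SE, adjusted p = 0.0308) at 70 d. Here the 28 d library decided the calls: without it the same changes had an adjusted p of 0.00191 at 5 d and 0.000191 at 70 d, both past the threshold. At 70 d Igtp (1.61) and Iigp1 (2.92) passed without it as well, with adjusted p of 0.000429 and 0.00115. Ifi47 rose by 4.83 at 28 d with that library and by 3.08 without it, and Iigp1 by 4.79 and 2.40. Igtp had the smallest change at 2, 5, 14 and 42 d (0.77, 0.11, 0.93 and 0.62, none called).

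Isg15 (gene ID 100038882, chromosome 4, 156199424 to 156200818), a ubiquitin-like protein that is attached to other proteins, held 6.83, 7.78, 2.89 and 2.31 CPM uninjured. At 2 d it held 110.3, 32.2, 49.1, 54.0 and 35.5, by 5 d 14.8, 21.6, 21.8 and 23.3 and by 70 d 17.1, 24.2, 22.6 and 11.9 CPM. None of these injured libraries reached down to the uninjured range. The change was 3.51 ± 0.46 (SE, adjusted p = 2.64e-07) at 2 d, 2.01 ± 0.44 (SE, adjusted p = 0.000321) at 5 d and 1.94 ± 0.44 (SE, adjusted p = 0.000653) at 70 d. From 2 to 5 d it fell by 1.49 on the log2 scale, a called difference. Usp18, which removes Isg15 from proteins and damps the type I receptor, was called at 2 d (2.49) and 14 d (2.22) and had changes of 0.48 to 1.49 at the other times.

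Among the nucleic acid sensors the DNA-binding proteins Ifi204 and Ifi202b and the Z-nucleic acid sensor Zbp1 changed most at 2 and 5 d, and the RNA sensors Ifih1 (MDA5) and Dhx58 (LGP2) least. Ifi204 (gene ID 15951, chromosome 1, 173747293 to 173767069) held 0.686, 0.352, 0.254 and 0 CPM uninjured, from 62, 33, 25 and 0 counts. The libraries of 2 d held 25.9, 11.99, 18.4, 24.4 and 20.4, by 5 d 22.5, 25.1, 30.5 and 29.8 and by 70 d 4.61, 2.98, 4.87 and 3.87 CPM. All these injured libraries lay above the uninjured ones, and those of 70 d below those of 2 and 5 d. The change was 5.94 ± 0.44 (SE, adjusted p = 4.04e-12) at 2 d, 6.33 ± 0.45 (SE, adjusted p = 2.2e-12) at 5 d and 3.64 ± 0.42 (SE, adjusted p = 5.25e-08) at 70 d. Zbp1 was higher at all 6 times, from 2.40 at 42 d to 4.33 at 5 d. Ifih1 was called at none of the 6 times (-0.11 to 0.49), and Dhx58 from 5 d on (1.86 at 5 d against 0.23, not called, at 2 d).

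Ifi202b appeared for a short time. It had 0 counts in all 4 uninjured astrocyte libraries and 479 to 929 counts at 2 d (10.7, 6.49, 7.21, 10.6 and 9.13 CPM). Measured against 3 counts per library, it was at least 262-fold higher at 2 d, at least 12.0-fold at 5 d (26 to 52 counts), at least 2.60-fold at 14 d and at least 2.55-fold at 28 d. It had 0 to 2 counts at 42 d and 0 in all libraries at 70 d. The flow-through of the same 5 mice at 2 d held 0, 0, 0, 14 and 12 counts. Of the marker lists, that of monocyte-derived macrophages also stood higher in astrocytes than in flow-through at 2 d (1669.7 to 4027 against 454 to 1075 CPM), and its part in the level of Ifi202b was not tested. With Ifi202b set to its bound the median over the 41 genes was 2.08 at 14 d and 2.14 at 28 d, and unchanged at the other times.

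The membrane factors were called in 3 of 3 members at all 6 times. Ifitm3 (gene ID 66141, chromosome 7, 141009590 to 141010744), which blocks the entry of enveloped viruses and was the member with the highest level of all 41 per kilobase, held 68.5, 91.5, 54.8 and 52.2 CPM uninjured. After 2 d the levels were 212, 177, 212, 235 and 183.4, by 5 d 145.3, 208, 214 and 229.7 and by 70 d 250.2, 294, 260.3 and 228 CPM. Its groups did not overlap the uninjured one at any of these times, and its spread was small. The change was 1.62 ± 0.16 (SE, adjusted p = 5.21e-10) at 2 d, 1.55 ± 0.16 (SE, adjusted p = 2.47e-09) at 5 d and 1.96 ± 0.17 (SE, adjusted p = 1.18e-10) at 70 d. Bst2 (tetherin), which holds budding virus at the cell surface, rose from 19.5, 19.3, 9.46 and 13.5 CPM uninjured to 119.7, 144.7, 158.4 and 129 at 5 d and stood at 69.0, 79.0, 76.2 and 62.6 at 70 d, a change of 2.22 ± 0.26 (SE, adjusted p = 9.63e-08). Ifi27l2a, a small membrane protein whose gene span overlaps that of Ifi27, rose most at 5 d (3.52).

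Of the 8 other effectors 7, 6, 7, 6, 3 and 5 were higher at the 6 times in order. Ifi35 (gene ID 70110, chromosome 11, 101448412 to 101458701), a leucine zipper protein, held 10.8, 9.46, 7.71 and 9.71 CPM uninjured. At 2 d it held 35.4, 16.5, 21.1, 26.5 and 20.8, by 5 d 22.4, 24.2, 30.6 and 26.7 and by 70 d 24.3, 30.1, 31.4 and 21.5 CPM. None of these injured libraries overlapped the uninjured ones. The change was 1.36 ± 0.17 (SE, adjusted p = 5.54e-08) at 2 d, 1.44 ± 0.18 (SE, adjusted p = 4.3e-08) at 5 d and 1.52 ± 0.18 (SE, adjusted p = 4.02e-08) at 70 d. Ifi44 changed most at 2, 14 and 28 d (3.49, 3.33 and 3.37, the last 2.66 without the library apart), Trim30a at 5 and 42 d (2.83 and 2.05) and Parp14, an ADP-ribosyltransferase, at 70 d (1.57). Trim30a, Parp14 and Ifi35 were higher at all 6 times, and Rtp4 (whose gene span overlaps that of Masp1) and Xaf1 at all but 42 d (0.69 and 0.62). Rsad2 was higher at 2, 5 and 14 d (1.39 to 1.98, with an adjusted p of 0.0101 at 5 d without the 28 d library apart). Cmpk2, a mitochondrial nucleotide kinase whose gene lies beside that of the antiviral enzyme Rsad2 (viperin), went the other way. It held 49.4, 48.7, 64.2 and 50.8 CPM uninjured, 39.6, 15.1, 24.9, 20.9 and 23.1 at 2 d and 25.1, 22.2, 18.9 and 22.4 at 5 d, and all injured libraries of these 2 times lay below the uninjured ones. Its change was -1.10 ± 0.27 (SE, adjusted p = 0.000772) at 2 d and -1.29 ± 0.29 (SE, adjusted p = 0.00033) at 5 d and not called later (-0.59 to -0.08).

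**Figure D3:**
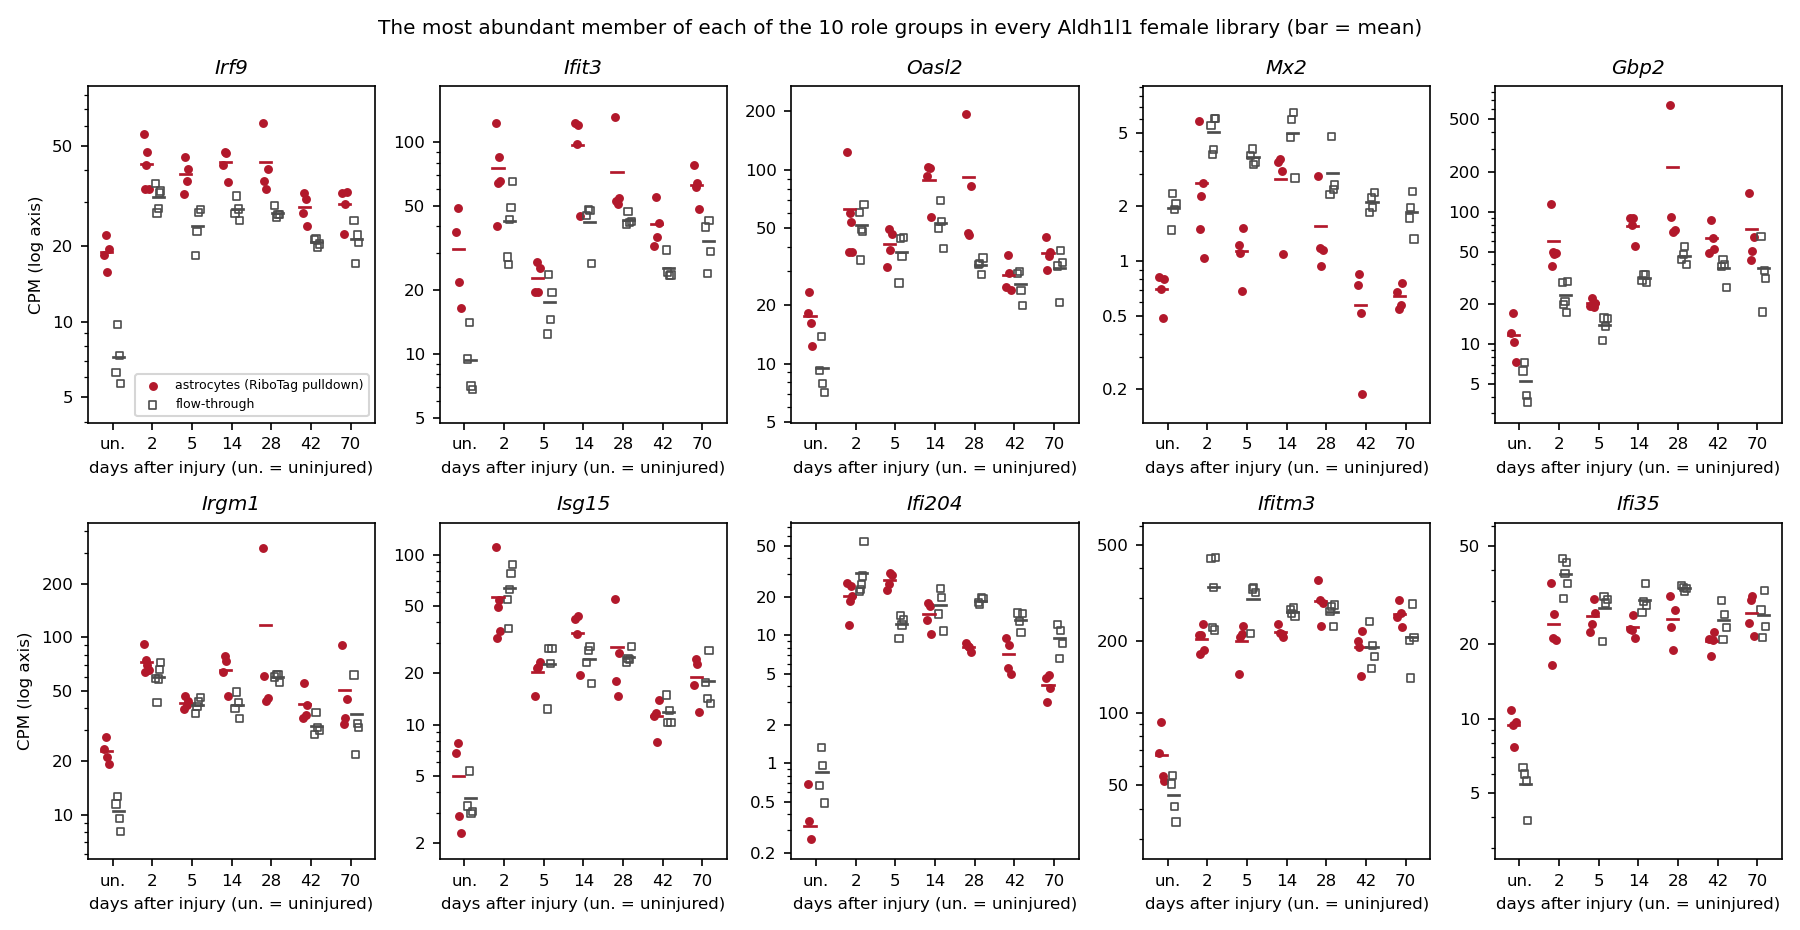
CPM (log axes) of the member with the highest mean level per kilobase in each of the 10 role groups, in every female Aldh1l1 library by days after injury, with filled circles for astrocytes, open squares for flow-through and bars for group means. A single uninjured astrocyte library with 0 counts of Ifi204 is not drawn, the high point at 28 d in Gbp2 and Irgm1 is replicate 1, and Ifit3 and Gbp2 show the dip at 5 d between 2 and 14 d.

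Steps between times were tested in the same fit. From 2 to 5 d 2 genes rose and 6 fell (19.6% of all genes lower): Ifit2, Ifit3, Gbp7 (-1.11), Isg15, Ifi202b and Ifi44 (-2.32) fell, and Dhx58 (1.63) and Ifi27l2a (1.28) rose. Without the 28 d library apart these were 3 and 10, with Gbp5 (1.06) now called higher and Gbp2 (-1.59), Gbp3, Irgm1 and Xaf1 lower. From 5 to 14 d 7 genes rose (12.7% of all genes higher) and 2 fell: Ifit1 (1.84), Ifit2, Ifit3, Gbp2 (1.92), Gbp7 (1.11), Cmpk2 (1.21) and Ifi44 (2.17) rose, while Ifi202b and Ifi27l2a (-1.70) fell. Leaving out replicate 1 or 2 at 14 d, or any replicate at 5 d, gave 5 such calls. Without the 28 d library apart 12 rose and 1 fell, with Oasl2 (1.07), Gbp3 (0.87), Gbp5 (1.02), Gbp6 (1.23) and Iigp1 (2.60) now among those that rose. From 14 to 70 d none rose and 10 (12 without that library) fell (15% of all genes lower), among them Irf7 (-1.78), Oasl1 (-2.56), Mx1 (-3.55), Mx2 (-2.08), Ifi204 (-1.77), Ifi44 (-2.64), Parp14 (-1.13) and Trim30a (-1.15), beside Ifit2 and Ifi202b. No guanylate-binding protein and no immunity-related GTPase was among the genes that fell, nor was a membrane factor, Isg15 or Usp18. With 15% of all genes lower, groups of so few genes are not set apart by this. Neither 6 nor 10 of 41 stood far from the share among all genes.

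In their matched flow-through more genes were called, and most had their largest change at 2 d. At 2 d 36 of 41 were higher and 1 lower (32.6% of all genes higher, median 2.55), at 5 d 33 and 1 (27.7%, median 1.87), at 14 d 37 and 1 (24.6%, median 2.18), at 28 d 35 and 1 (26.4%, median 2.29), at 42 d 29 and 1 (25.3%, median 1.53) and at 70 d 31 and 1 (21.8%, median 1.72). The largest change fell at 2 d for 25 of the 41 genes, and 25 were higher at all 6 times. The same counts were not made over all genes, so neither is shown to be particular to the 41. The gene that was lower was Cmpk2 throughout, from 28, 32.4, 30.004 and 27.5 CPM uninjured to 7.40, 5.003, 3.64 and 6.89 at 5 d and 16.9, 18.003, 12.4 and 11.3 at 70 d. Its change ran from -2.29 at 5 d to -0.99 at 70 d. Ifit2 was the member of its family that was called in flow-through at none of the times (-0.24 to 0.71), with 7.36, 10.5, 6.89 and 6.398 CPM uninjured and 8.32, 2.23, 5.58, 9.05 and 15.2 at 2 d. At 2 d Gbp5 (0.24) and Gbp6 (-0.18) were not called either.

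By role, all 4 transcription factors were higher in flow-through at 2, 5, 14, 28 and 70 d, with Irf7 largest at 2 d (3.13) and Irf1 at 70 d (2.57), and Stat2 smallest throughout. Of the IFIT proteins Ifit1 and Ifit3 were called at all 6 times, with Ifit1 at 2.93 at 2 d and Ifit3 at 1.89 at 70 d. All 5 oligoadenylate synthetases were higher at 2, 5 and 14 d, Oas3 most at 2 d (5.00) and Oas2 least (2.31). Both Mx GTPases were called at these times and at none later. The guanylate-binding proteins were led by Gbp7 at 2 d (2.37) and by Gbp2 later (3.12 at 28 d, 2.84 at 70 d). All 4 immunity-related GTPases were called at every time but 5 d, when Iigp1 (0.98) was not, and stood between 1.91 (Iigp1) and 2.55 (Irgm1) at 2 d. Isg15 and Usp18 were higher at all 6 times, Isg15 by 4.14 at 2 d and 2.31 at 70 d.

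Among the sensors Zbp1 changed most at 2 d (5.23) and Ifi204 at 70 d (3.49), and Ifih1, at no time called in astrocytes, was higher in flow-through at all 6 times (1.53 at 2 d). Bst2 led the membrane factors at all 6 times, from 2.83 at 42 d to 5.24 at 2 d. Of the other effectors Rsad2 rose most at 2 d (4.44), Trim30a at 14, 28 and 42 d and Ifi35 at 5 and 70 d (2.29 at 70 d). The pan-myeloid sum of flow-through was 222 to 244.98 CPM uninjured, 2713 to 3755 at 2 d and 3279.5 to 4068 by 14 d, and its part in these changes was not tested.

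**Figure D4:**
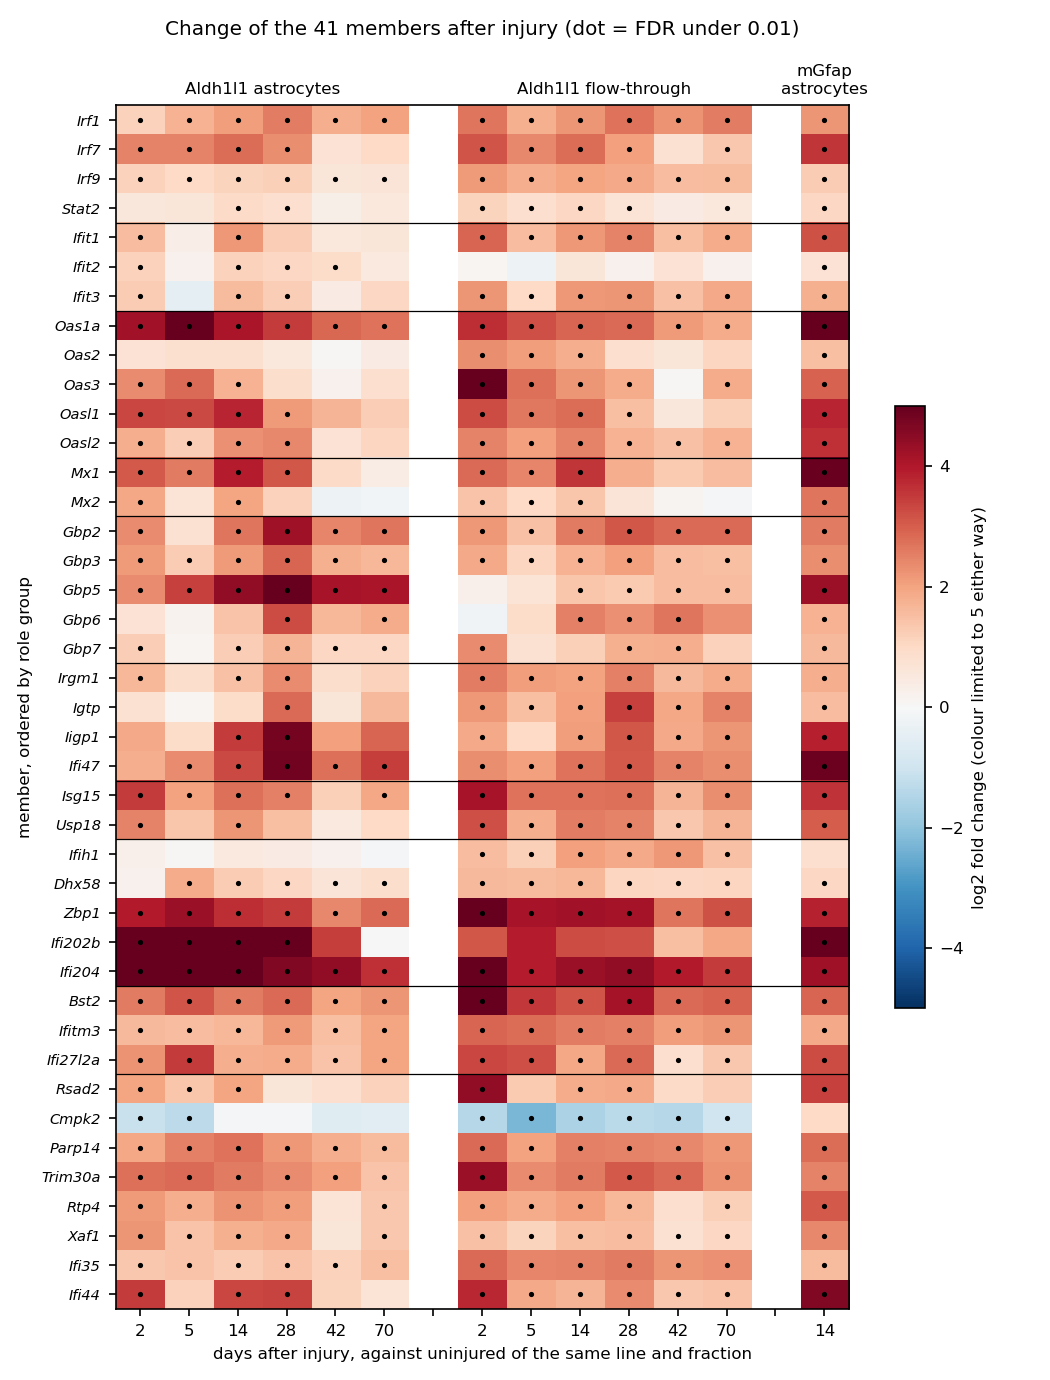
Log2 fold change against uninjured of each of the 41 genes, ordered by role group, in Aldh1l1 astrocytes and flow-through at 2 to 70 d and in mGfap astrocytes at 14 d (color, limited to 5 either way), with a dot where the false discovery rate was under 0.01. Red fills most cells, Cmpk2 is blue in flow-through at all 6 times, and for Ifi202b the color is a fitted value against 0 counts and no measure of size.

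Whether the change differed between the fractions was tested as an interaction, with both fractions of a mouse fitted as if independent. At 2 d it differed for 14 genes, 3 with the larger change in astrocytes and 11 with the larger change in flow-through (50.7% of all genes differed), a larger share than 14 of 41. At 5 d it differed for 6 genes (4 and 2; 28.5%), at 14 d for 5 (3 and 2; 24.5%), at 28 d for 5 (2 and 3; 28.4%), at 42 d for 4 (1 and 3; 23.3%) and at 70 d for 3 (1 and 2; 17.7%). Without the mouse of replicate 1, 7 differed at 28 d (1 and 6), among them Irgm1 (-1.32) and Igtp (-2.38). Scaled by library totals alone the split was 4 and 8 at 2 d, it was 4 and 1 by 5 d and 1 and 1 by 70 d. By DESeq2 they were 3 and 5 at 5 d and 3 and 4 at 14 d, and with its size factors in edgeR 2 and 3 at 14 d.

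Gbp5 was the gene with the larger rise in astrocytes at all 6 times, by 2.31, 2.96, 3.19, 3.92, 2.65 and 2.59 in order of time. Its flow-through levels were 1.66, 3.44, 1.49 and 1.91 CPM uninjured and 2.67, 0.375, 3.49, 2.47 and 3.24 at 2 d. By 14 d they were 5.34, 6.81, 5.995 and 3.94 CPM and by 70 d 11.2, 2.81, 4.73 and 5.66. Astrocytes thus started below flow-through in the uninjured cord and stood above it in every pair from 2 d on. At 28 d the value for Gbp5 was 2.97 without the mouse of replicate 1. Ifit2 also rose more in astrocytes at 2 d, by 1.26 ± 0.35 (SE, adjusted p = 0.00152), Oas1a at 5 d (2.06) and Ifi44 at 14 d (1.77). For Cmpk2, which was lower in flow-through at all times, the interaction was positive at 5, 14 and 28 d (1.20, 1.63 and 1.31) and was 0.78 and not called at 28 d without replicate 1. At 5 d Cmpk2 was lower in both fractions (-1.29 in astrocytes and -2.29 in flow-through). With the mouse as a block Ifi202b lost its call at 2 d and Ifi44 at 14 d.

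Bst2 rose more in flow-through at 2 d, from 9.06, 12.3, 7.34 and 6.81 to 224, 403.4, 256, 408.5 and 348.1 CPM against 19.5, 19.3, 9.46 and 13.5 to 128, 69.3, 75.8, 109.8 and 78.9 in astrocytes, an interaction of -2.47 ± 0.32 (SE, adjusted p = 3.03e-09). The others that rose more in flow-through at 2 d were Irf1 (-1.34), Irf9 (-0.78), Oas2 (-1.42), Oas3 (-2.44), Ifih1 (-1.07), Dhx58 (-1.22), Ifitm3 (-1.10), Rsad2 (-2.28), Trim30a (-1.38) and Ifi35 (-1.30). Ifih1 rose more in flow-through at 14, 28, 42 and 70 d as well (-1.43, -1.44, -1.87 and -1.52). It went from 2.27, 2.36, 2.34 and 1.53 CPM uninjured to 7.09, 10.3, 8.81 and 8.90 at 14 d in flow-through, while it was called at no time in astrocytes. Irf9 differed so at 42 and 70 d (-0.84 and -0.87) and Ifi35 at 5, 14, 28 and 42 d (-1.13 to -0.78).

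Astrocytes and flow-through of the same group were compared directly, again without pairing by mouse. A gene was called at a false discovery rate under 0.01 and at least a 2-fold difference. Of the 40 tested in the uninjured Aldh1l1 cord, where the filter on low counts removed Ifi202b, astrocytes had 12 higher and 3 lower (18.9% and 22.2% of all genes). Gbp7 (2.68), Ifih1 (2.53), Gbp6 (2.18), Oas3 (2.02), Rsad2 (2.03), Igtp (1.99) and Ifit3 (1.76) led the higher ones, with Ifit2, Irf9, Gbp2, Irgm1 and Gbp3, and Irf7, Mx2 and Xaf1 were lower. After injury the counts were 7 higher and 7 lower (19.7% and 21.4% of all genes) at 2 d, 12 higher and 3 lower (16% and 19.2% of all genes) at 5 d, 12 higher and 4 lower (15.4% and 18.9% of all genes) at 14 d, 4 higher and 3 lower (17.8% and 19.2% of all genes) at 28 d, 6 higher and 3 lower (13.1% and 16.1% of all genes) at 42 d and 6 higher and 4 lower (13.7% and 17.1% of all genes) at 70 d. Without replicate 1, 5 were higher and 7 lower at 28 d, and without replicate 3, 6 in all differed at 70 d. The share that was higher in astrocytes stood above that of all genes in the uninjured cord and at 5 and 14 d, and near or below it at the other times.

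The split depended on the scaling. Between TMM and library totals the median of all genes shifted by -0.58 to 0.27 on the log2 scale. By library totals alone 5 were higher and 6 lower in the uninjured cord, 9 and 5 by 5 d, 9 and 6 by 14 d, 5 and 7 by 42 d, and 3 and 7 by 70 d. With the mouse as a block Oas3 was no longer called in the uninjured cord, Cmpk2 and Ifi47 at 2 d and Ifi202b at 5 d.

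Gbp7 and Ifit2 were higher in astrocytes in all 7 groups of the Aldh1l1 line. Gbp7 held 10.01, 9.74, 10.04 and 10.4 CPM in uninjured astrocytes against 0.959, 2.64, 1.32 and 1.42 in their flow-through, and 27.4, 22.6, 27.1 and 20.1 against 3.81, 4.10, 3.45 and 2.82 at 14 d. The difference was 2.68 ± 0.27 (SE, adjusted p = 3.45e-06) uninjured and 2.69 ± 0.14 (SE, adjusted p = 2.82e-09) at 14 d, with no overlap at either time. Ifit2 differed by 1.43 uninjured and 2.49 at 2 d. Gbp5 was higher from 5 d on (1.92, 2.21, 3.01, 1.75 and 1.69, that of 28 d being 2.07 without replicate 1) and Cmpk2 at all 6 times after injury (1.16 to 2.34). Irf7 was lower in astrocytes in 6 of the 7 groups (-1.80 at 2 d to -1.06 at 5 d), and Ifi27l2a at 2, 14 and 28 d (-2.29, -1.29 and -2.14). The group without a call for Irf7 was that of 28 d, where it was called lower (-1.52) without replicate 1.

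The mGfap line asked the same question at 14 d with another Cre and far fewer myeloid transcripts. Against P63 mice 39 of 41 genes were higher and none lower (27.7% of all genes higher), with a median change of 2.78. Ifih1 (0.84) and Cmpk2 (0.99) were not called. The pan-myeloid sum in these astrocytes was 127 to 713 CPM against 17.9 to 23.6 at P63, and against 2553 to 4033 in the Aldh1l1 line at 14 d. Replicate 4 held both the highest pan-myeloid sum (713 CPM) and the lowest sum of the 41 genes (755 CPM, group median 1337). Oligodendrocyte markers moved the other way between the lines: 23349.7 to 35345 CPM in mGfap astrocytes at 14 d, 8473 to 11832 at P63 and 1828 to 2465 in the Aldh1l1 line at 14 d. The part of either list in the results was not tested. The injured mice were females and the P63 group held both sexes, so injury and sex cannot be fully told apart in this contrast. The age of the injured mice was not labelled, so age cannot be told apart either.

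By gene, Isg15 went from 4.86, 5.20, 3.78, 3.83 and 2.60 CPM at P63 to 65.7, 61.8, 41.05, 15.1 and 47.9 at 14 d, a change of 3.60 ± 0.40 (SE, adjusted p = 7.23e-07). Gbp2 went from 11.7, 20.9, 14.2, 15.7 and 10.2 to 59.4, 122, 87.9, 42.9 and 108 CPM, a change of 2.61 ± 0.28 (SE, adjusted p = 4.84e-07). Ifitm3 went from 62.7, 75.5, 61.2, 68.1 and 58.4 to 329.8, 192.2, 226, 209 and 177 CPM, a change of 1.89 ± 0.16 (SE, adjusted p = 2.39e-08). None of these overlapped between the groups. Ifit3 did overlap through replicate 4, with 33.3, 40.7, 31.2, 39.2 and 27.7 CPM at P63 and 131, 183.6, 94.5, 26.01 and 117 at 14 d, a change of 1.76 ± 0.39 (SE, adjusted p = 0.000985). The other members with the highest level of their role changed by 1.28 (Irf9), 3.65 (Oasl2), 2.69 (Mx2), 1.80 (Irgm1), 4.23 (Ifi204) and 1.59 (Ifi35), all called. Oas1a (5.82), Mx1 (4.94), Ifi47 (4.92) and Ifi44 (4.63) led the list, Oas1a from 0 to 14 counts and Mx1 from 0 to 26 counts per library at P63. Ifi202b had 0 counts at P63 and 0 to 26 at 14 d, at least 3.05-fold higher. The smallest change among the called genes was that of Ifit2 (0.73). By role the range ran from Stat2 (1.03) to Irf7 (3.59) in the transcription factors, from Oas2 (1.49) to Oas1a in the oligoadenylate synthetases, from Gbp7 (1.61) to Gbp5 (4.28) in the guanylate-binding proteins and from Igtp (1.56) to Ifi47 in the immunity-related GTPases. Ifit1 (3.18) led the IFIT proteins and Ifi27l2a (3.27) the membrane factors.

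Whether the change at 14 d differed between the lines was tested as an interaction, and it was called for none of the 41 genes (12.7% of all genes differed) by edgeR or by DESeq2, while 6 had an unadjusted p under 0.05, all with the larger rise in mGfap astrocytes: Oasl2, Ifi47, Ifi27l2a, Rsad2, Cmpk2 and Xaf1. Without mGfap replicate 4 Oasl2 was called. Over the 41 genes the changes of both lines had a Pearson r of 0.900 and a Spearman rho of 0.928, with 34 larger in the mGfap line. This is a correlation across genes, which are not independent replicates. The uninjured lines differed for 4 genes, all lower in mGfap astrocytes at P63 (6.86% of all genes lower): Oas3, Ifi47, Dhx58 and Ifi27l2a (-4.54, -2.02, -0.88 and -1.60). The Aldh1l1 mice were all female, had tamoxifen and were older by the paper, while the P63 group held both sexes and needed no inducer. Line, sex, tamoxifen and age cannot be told apart here. Oas3 rested on 0 to 6 counts per library at P63, so the size of its difference is poorly fixed. Leaving out Aldh1l1 replicate 1 or 2, or P63 replicate 1, 4 or 5, gave 2 calls each.

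**Figure D5:**
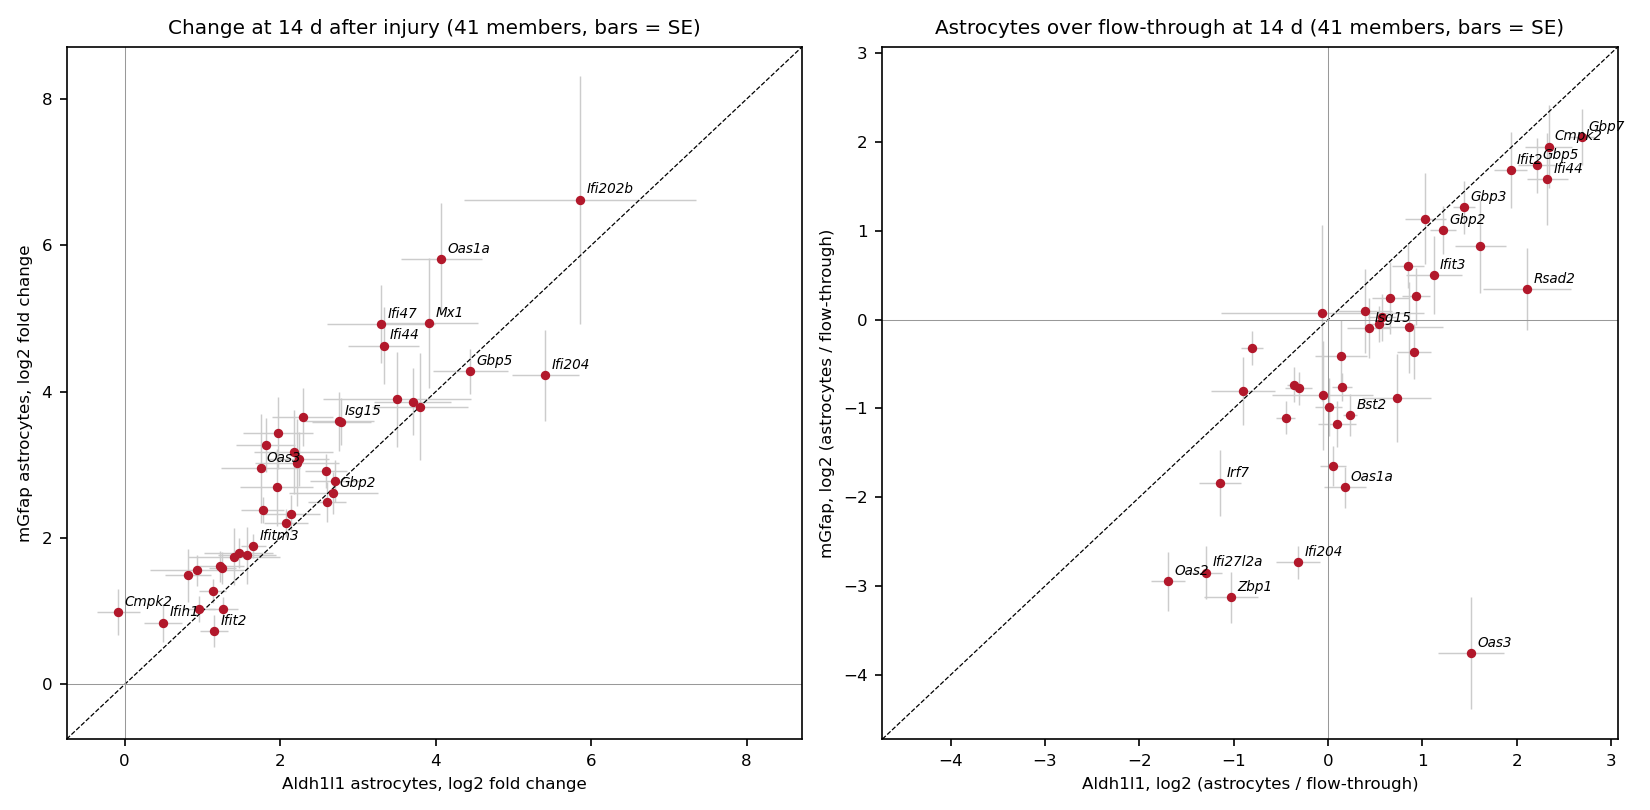
Left, log2 fold change at 14 d after injury of the 41 genes in Aldh1l1 astrocytes (x axis) and mGfap astrocytes (y axis). Right, log2 ratio of astrocytes over flow-through at 14 d in both lines, bars are standard errors and the dashed line marks equal values. On the left 34 genes lie above the dashed line, and on the right Oas3 stands apart at 1.51 in the Aldh1l1 and -3.75 in the mGfap line.

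Against their own flow-through, mGfap astrocytes at P63 had 9 higher and 9 lower (17.8% and 23.1% of all genes), and at 14 d 6 higher and 11 lower (15.6% and 18.7% of all genes). The genes that were higher at 14 d were Ifit2 (1.69), Gbp2, Gbp3, Gbp5, Gbp7 and Cmpk2, and all 6 were among the 12 that were higher in the Aldh1l1 line (50.0% of those 12). The 4 that were lower in the Aldh1l1 line, Irf7, Oas2, Zbp1 and Ifi27l2a, were all among the 11 lower in the mGfap line (36.4% of those 11). The other 7 were Oas1a, Oas3, Dhx58, Ifi204, Bst2, Parp14 and Ifi35. Ifi204 held 3.32, 4.07, 3.18, 3.48 and 3.17 CPM in mGfap astrocytes and 15.6, 26.6, 29.1, 20.7 and 20.5 in their flow-through, a difference of -2.74 ± 0.19 (SE, adjusted p = 5.84e-07). In the Aldh1l1 line the 2 fractions held 13.1, 17.97, 16.98 and 10.2 and 14.7, 23.3, 19.7 and 10.8 CPM, which overlap. Oas3 went in opposite directions, at 0.156, 0.619, 0.445, 0.120 and 0.0520 CPM in mGfap astrocytes against 3.56, 5.83, 4.75, 1.99 and 2.30 in flow-through, a difference of -3.75 ± 0.63 (SE, adjusted p = 0.000349). In the Aldh1l1 line it held 2.22, 5.43, 3.03 and 1.39 against 1.25, 0.818, 0.978 and 0.947 CPM, a difference of 1.51 ± 0.35 (SE, adjusted p = 0.00171). The difference between the lines in these ratios was not tested.

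Pan-myeloid markers in the mGfap flow-through at 14 d summed to 2679 to 6316 CPM, and their part in these ratios was not tested. By library totals alone 5 genes were higher and 11 lower at P63, and 3 and 11 at 14 d. With the mouse as a block Ifi204, Oas2 and Oas3 lost the call at P63 and Gbp2 at 14 d. Without replicate 3 there were 11 calls at 14 d in place of 17.

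In uninjured mGfap astrocytes the genes were followed from birth to P63, with 39 of 41 tested (Mx1 and Ifi202b were removed by the filter). The P0 mice were all male by their labels and every later age held both sexes, so differences from P0 cannot be fully told apart from sex. The summed level of the 41 genes rose from 153.3 to 186 CPM at P0 to 222 to 231 at P7, 263 to 283 at P21 and 294 to 402.5 at P63, all below the injured groups. From P0 to P7 4 genes rose (12.5% of all genes higher) and Parp14 fell (-1.82): Ifit3 (2.25), Gbp2 (2.51), Igtp (1.13) and Ifitm3 (1.09). From P7 to P21 Ifit2 (0.89), Ifih1 (1.44) and Cmpk2 (0.71) rose (8.01% of all genes higher). From P21 to P63 edgeR called none (3.8% of all genes higher), while 7 had an unadjusted p under 0.05 and DESeq2 called 2. By library totals alone 4 rose and 3 fell from P0 to P7, and 1 rose and 1 fell from P7 to P21. Leaving out P0 replicate 1 gave 9 calls from P0 to P7, and leaving out P7 replicate 1 gave 1 call from P7 to P21.

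Over the whole span from P0 to P63 12 genes rose (25.1% of all genes higher) and 1 fell. By library totals alone 9 rose and 2 fell. The largest rises were those of Ifit3, at 5.35 ± 0.53 (SE, adjusted p = 2.92e-09), Oasl1 and Dhx58 (3.20). Ifit3 ran at 0.211 to 1.52 CPM at P0, 1.297 to 2.61 at P3, 3.36 to 4.50 at P7, 6.21 to 15.5 at P14, 10.7 to 17.6 at P21, 7.90 to 31.2 at P35 and 27.7 to 40.7 at P63. Its ranges at P0, P7, P21 and P63 rose without overlap. Of the steps tested between these ages, only that from P0 to P7 was called for it. The ranges of P0 and P3 overlapped, as did those of P14 and P35 with P21 and of P35 with P63. Gbp2 instead reached its adult range by P7, with 0.561 to 5.34 CPM at P0, 17.2 to 18.9 at P7 and 10.2 to 20.9 at P63. Ifitm3 held 17.9 to 29.2, 51.0 to 53.3 and 58.4 to 75.5 CPM at these ages. Its libraries of P7 thus still lay below those of P63. Oasl1 (4.36) rested on 0 to 4 counts per library at P0. The rest were Ifit1 (2.13), Oasl2 (1.24), Gbp2 (2.22), Gbp3 (1.83), Irgm1 (1.15), Igtp (2.19), Bst2 (1.02), Ifitm3 (1.39) and Cmpk2 (1.26). Parp14 fell by 2.79 on the log2 scale, from 4.10 to 33.6 CPM at P0 to 1.97 to 2.90 at P63. Pan-myeloid markers summed to 23.1 to 68.3 CPM at P0 and 17.9 to 23.6 at P63.

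Between males and females of the Aldh1l1 line at 5 and 14 d, with time as a term, edgeR called none of the 41 genes (0.051% of all genes differed) and neither did DESeq2, while Gbp2 (0.39 in males) and Gbp3 (0.29) had an unadjusted p under 0.05. At 14 d the sum over the 41 genes was 1021 to 1520.1 CPM in females and 1025 to 1945 in males. Isg15 at 14 d ran from 19.6 to 43.3 CPM in females and from 20.1 to 55.2 in males.

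The other genes of the pathway were taken from a list. Of 7 interferon genes 1 (Ifng) passed the filter in the Aldh1l1 fits and it was called at no time against uninjured, with 0 to 50 counts per library. Its change at 2 d differed between the fractions (adjusted p = 0.00731, edgeR), where it had 0 counts in all 5 astrocyte libraries and 0 to 18 in flow-through. Ifna1 and Ifna4 had 0 counts in every library and Ifnb1 at most 15. Of 11 receptor and signaling genes 7 were higher in Aldh1l1 astrocytes at 2, 5, 14 and 28 d, 5 at 42 d and 6 at 70 d, beside 22.8% to 30.2% of all genes, and 1 was lower at 28 d and 2 at 70 d. Without the 28 d library apart 8 were higher at 5 and 14 d and 6 at 28 d. In flow-through 8 of the 11 were higher at both 2 and 70 d (32.6% and 21.8% of all genes) and 2 lower at 2 d, and in mGfap astrocytes 7 were higher and 1 lower at 14 d (27.7% of all genes higher). The type I receptor subunit Ifnar2 changed by 1.01 at 2 d and 0.79 at 70 d, and the interferon gamma receptor subunits Ifngr1 and Ifngr2 by 2.07 and 2.45 at 14 d.

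Of 12 inducer genes 8 were higher at 2 d and 9 at 5 and 14 d (30.2%, 28.7% and 24.5% of all genes higher), led by the endosomal RNA sensor Tlr7 (5.55 at 2 d and 6.98 at 14 d), while 2 were lower at 2 d, Tlr3 (-1.49) and Mavs (-0.26), the latter not called without the 28 d library apart. Of 4 negative regulators 3 were higher at 2 and 14 d and 1 lower at 14 d (Trim24), among them Socs1 (1.18 at 2 d) and Socs3 (5.15 at 2 d). Of 12 interferon gamma targets and antigen processing genes 8 were higher at 2 d, 10 at 5 d and 11 at each of 14, 28, 42 and 70 d, beside the same shares of all genes. The chemokines Cxcl9 and Cxcl10 changed by 7.04 and 5.51 at 14 d and by 7.50 and 4.23 at 70 d. In mGfap astrocytes 11 of these 12 were higher too, with Cxcl9 at 4.23 and Cxcl10 at 4.57. Between the lines, all 11 receptor and signaling, 12 inducer, 4 negative regulator and 12 interferon gamma target and antigen processing genes were tested. The change at 14 d was smaller in mGfap astrocytes for 9 of them and larger for none (4.94% of all genes smaller and 7.71% larger). These were the receptors Il10rb (-1.72), Ifngr1 (-1.46) and Ifngr2 (-0.91) and the inducers Tlr7 (-3.72), Mb21d1 (-2.61), Ikbke (-1.70) and Tbk1 (-0.79). The others were the antigen presentation genes B2m (-0.81) and H2-D1 (-0.83).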

How the data were processed

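RNA of the astrocyte pulldown and the flow-through was sequenced as poly(A) libraries. The authors deposited raw counts for 27179 Entrez gene IDs per library, made with featureCounts from HISAT2 alignments to mm10 of reads cleaned by Trimmomatic, of which RefSeq named 25275. Total counts were 40710428 to 136008399. Without strand-specific counting stated, reads of overlapping genes could not be separated.

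Counts were normalized by TMM and tested with edgeR 4.0.16 (R 4.3.3) by the quasi-likelihood F test after filterByExpr, with Benjamini-Hochberg adjustment over all genes tested (16476 to 19640) in 38 comparisons. A gene was called at a false discovery rate under 0.01, and for astrocytes against flow-through also at least 2-fold. The female Aldh1l1 time course shared 1 fit per fraction, interactions 1 fit over both fractions, each pair of fractions its own fit, the lines 1 fit, the postnatal ages 1 fit and the sexes 1 fit with time as a term. FPKM is CPM per kilobase of exon. Single-gene values of 1 gene of the pathway lists are not reported here. Scripts were tested on simulated data. DESeq2 1.42.0, other scalings, no filter, a false discovery rate of 0.05, fits of the compared groups alone, blocks and leaving out each replicate were tried as alternatives. Leaving the 28 d replicate 1 out of the whole time course was added after seeing the data.

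Members, lists and tests were chosen with earlier results of these data known. For each of the 10 roles the member with the highest mean FPKM in Aldh1l1 astrocytes was described in full, with the largest and smallest change of its role in the injury comparisons, the members called against the main direction or removed by the filter, and every member by count. Genes described for their course or level beyond this (Gbp5, Gbp7, Ifi202b, Cmpk2, Ifit2, Bst2, Oas3) were singled out after their values were seen.

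RiboTag and flow-through libraries of the same number came from the same mouse by the series' design text. The reported interactions and comparisons of fractions did not use this pairing, and the mouse as a block was an alternative. In a check of the pairing, mates' deviations from their group means correlated at 0.323 to 0.495 in the uninjured group and -0.084 to 0.131 at 2 d. They correlated at 0.012 to 0.148 at 28 d and at 0.096 or more in the other groups. A library matched its own mate best for 2 of 5 mice at 2 d and 1 of 4 at 28 d, so the pairing is weakly borne out there. Each library of a fraction is labelled as a separate mouse, and p-values measure the spread between these mice. No 2 libraries were identical. In the Aldh1l1 line 1 flow-through library at 5 d carried a sex label that differed from its title and was kept by its title.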

Additional observations from a re-analysis of the deposited data

Results flagged for a closer look

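Only astrocyte groups were examined for a single value far from the rest. Chance picks about 1 in 20 of independent cases. These cases were not independent, since the sum over the 41 genes holds the single genes. Of 99 groups of 4 or 5 libraries examined, 10 were picked out. Of these, 5 came from replicate 1 of the Aldh1l1 astrocytes at 28 d: the sum over the 41 genes (3655.56 CPM, others 976.36 to 1187.36), Ifit3 (131.68 CPM, others 51.272 to 54.558), Mx2 (2.919 CPM, others 0.939 to 1.186), Gbp2 (638.322 CPM, others 70.108 to 91.076) and Irgm1 (317.413 CPM, others 43.738 to 60.519). Another 3 came from replicate 1 at 2 d: Oasl2 (122.966 CPM, others 37.879 to 59.525), Gbp2 (114.32 CPM, others 39.117 to 50.045) and Isg15 (110.313 CPM, others 32.163 to 53.957). The sum over the 41 genes was also far from the rest in replicate 1 at 70 d (1350.28 CPM, others 895.1 to 955.39) and, on the low side, in replicate 4 at 14 d (1021.2 CPM, others 1453.06 to 1520.1).

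The change after injury differed between astrocytes and flow-through, by the interaction test, for 14, 6, 5, 5, 4 and 3 of the 41 genes at the 6 times in order from 2 to 70 d. Over all genes tested the shares were 50.7%, 28.5%, 24.5%, 28.4%, 23.3% and 17.7%.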

How the results depend on the processing

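Counts of called members stayed within 1.5 times the reported count in 236 cases under other settings and moved further in 22. With a mouse or library left out they stayed in 285 and moved in 19. These are totals of higher and lower calls together, so they do not show whether the direction changed. Between fractions by library totals alone, 12 higher and 3 lower became 5 and 6 in the uninjured cord, and 6 and 4 became 3 and 7 at 70 d. Of the counts that moved, steps in Aldh1l1 astrocytes went from 8 (5 against 2 d) to 14 at a false discovery rate of 0.05 and 17 with only those groups in the fit, and from 9 (14 against 5 d) to 14 and 22. Interactions at 28 d went from 5 to 8 at 0.05. Between fractions, dropping the 2-fold requirement gave 23, 25, 11 and 15 calls at 5, 14, 28 and 42 d, and the count of 7 at 28 d became 12 at 0.05 and 11 by DESeq2. The 4 calls between uninjured lines became 9 at 0.05 and 7 with only those groups. From P0 to P7 the 5 became 10 at 0.05, 8 by DESeq2 and 1 with only those groups, from P7 to P21 the 3 became 6 at 0.05 and 9 with only those groups, and from P21 to P63 the 0 became 2 at 0.05, 2 by DESeq2 and 6 with only those groups. Why these moved was not tested. Leaving out replicates gave 6 to 13 from 2 to 5 d, 5 to 13 from 5 to 14 d, 5 to 12 between fractions at 28 d, 6 to 11 at 70 d and 11 to 17 in the mGfap line at 14 d, 2 to 4 between uninjured lines, 0 to 1 for the line interaction, 4 to 9 from P0 to P7, 1 to 3 from P7 to P21 and 0 to 1 from P21 to P63.

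Apart from mice that gave both fractions, samples shared only a replicate number. Same-number libraries of Aldh1l1 astrocytes correlated at -0.348 to 0.354 (median 0.001). With that number as a replicate block 34, 28, 36, 33, 18 and 22 members were called in Aldh1l1 astrocytes at 2 to 70 d, and 1 from P21 to P63. With the mouse as a replicate block the fractions differed for 16 members uninjured and 12 at 2 d, and beyond the calls named above no other was lost.

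Of single genes, Irf9 at 70 d lost its call without 70 d replicate 1 or 4 or uninjured replicate 3 (adjusted p = 0.0109 to 0.0145, edgeR), Ifit3 at 2 d with only those groups in the fit and Oasl2 at 5 d without the filter on low counts. With only those groups Oasl2 at 70 d and Gbp2 and Irgm1 at 5 d were called. DESeq2 gave no adjusted p for Gbp2 and Irgm1 at 2, 5 and 70 d. Depth limits Oas3, Oas1a, Mx1, Oasl1, Mx2 and Ifi202b, with few counts in uninjured libraries.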
